A study of Mus musculus with 4 samples.

Results

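The CXC chemokine system was followed through the immune infiltrate of mouse gliomas through 9 genes, the ligands Cxcl9, Cxcl10, Cxcl13, Cxcl14, Cxcl16 and Cxcl2 and the receptors Cxcr3, Cxcr6 and Cxcr4. They were taken by symbol, 9 of the 31253 genes listed in the count tables, and the rule itself used no measured value. The tumors were CT2a, a glioma cell line syngeneic to C57BL/6 mice, placed in the brain of adult female hosts and harvested on day 14. The hosts were wild type (WT) or CaMKK2 KO, a germline deletion of the calcium/calmodulin-dependent kinase kinase CaMKK2 on the same strain background, so that host cells of every type carried the deletion. Live CD45+ cells were sorted from 4 mice per genotype, marked with 1 hashtag antibody per mouse, pooled by genotype and run as 1 single-cell library per genotype. Genotype and library therefore cannot be told apart. The mouse, read from the hashtag, was the unit of every test, and the 4 mice of a genotype share 1 library. Tumor cells, endothelium and neurons were removed by the CD45 gate, so ligands made by them were not measured.

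Chemokines are small secreted proteins that bind G protein-coupled receptors on leukocytes and guide their migration. CXCL9 and CXCL10 are induced by interferons and bind CXCR3, a receptor of activated T cells and NK cells. CXCL16 is made as a membrane-anchored protein that can be shed, and its receptor CXCR6 marks tissue-resident and effector T cells. CXCL13 binds CXCR5 and organizes B cell follicles, CXCL2 binds CXCR2 and draws neutrophils, and CXCL14 is a homeostatic chemokine of epithelia and macrophages. CXCR4 is the receptor of CXCL12, a ligand made largely by stromal cells, and is carried by many leukocytes.

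The bases just upstream of the transcription start are shown for Cxcl9, Cxcl10 and Cxcl13, because these 3 ligands carried the ligand differences described below. Each sequence holds the 250 bases before the RefSeq start site (GRCm38.p6), written 5′ to 3′ on the strand of the gene. They lie at chr5:92328080-92328329 (minus strand), chr5:92348890-92349139 (minus strand) and chr5:95956689-95956938 (plus strand), outside annotated genes. Capitals mark matches to the motifs searched on both strands: GAS (TTCNNNGAA, the gamma-interferon activated site), the core of the interferon-stimulated response element or ISRE (GAAANNGAAA), the NF-kB consensus and TATAAA.
Cxcl9: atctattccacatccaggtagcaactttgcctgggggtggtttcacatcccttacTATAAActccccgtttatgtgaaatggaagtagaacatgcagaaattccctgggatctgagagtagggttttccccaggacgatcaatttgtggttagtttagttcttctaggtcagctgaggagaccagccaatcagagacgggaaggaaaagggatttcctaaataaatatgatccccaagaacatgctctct
Cxcl10: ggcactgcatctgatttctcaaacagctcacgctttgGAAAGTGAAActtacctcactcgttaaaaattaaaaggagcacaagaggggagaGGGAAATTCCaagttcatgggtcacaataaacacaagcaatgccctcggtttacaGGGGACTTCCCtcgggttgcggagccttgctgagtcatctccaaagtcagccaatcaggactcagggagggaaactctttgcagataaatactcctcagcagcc
Cxcl13: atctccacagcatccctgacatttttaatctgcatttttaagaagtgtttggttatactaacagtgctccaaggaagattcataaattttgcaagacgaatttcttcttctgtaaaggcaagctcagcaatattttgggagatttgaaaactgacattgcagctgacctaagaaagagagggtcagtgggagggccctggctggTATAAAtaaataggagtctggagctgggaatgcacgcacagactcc
The Cxcl10 window held an ISRE core 213 bases before the start site and NF-kB matches at 159 and 104 bases, the latter read again on the other strand at 103. Neither the Cxcl9 nor the Cxcl13 window held a GAS, ISRE or NF-kB match, and their capitals are TATAAA at 195 and 46 bases before the start. Among 27025 mouse promoters of the same length, 7.18% held the GAS, 3.04% the ISRE core, 7.01% the NF-kB consensus and 12.97% TATAAA. Of the other windows, Cxcl14 had a GAS and an ISRE core, Cxcl2 an NF-kB match and Cxcr4 TATAAA, and Cxcr3 and Cxcr6 had none of the 4. A match in these letters is not a measured binding site.

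In GRCm38 (GENCODE M21) the genes lie at chr5:92321347-92328079 (Cxcl9, minus strand), chr5:92346638-92348889 (Cxcl10, minus), chr5:95956951-95961068 (Cxcl13, plus), chr5:90903871-90905938 (Cxcl2, plus), chr11:70453983-70459984 (Cxcl16, minus) and chr13:56288643-56296551 (Cxcl14, minus). The receptors lie at chrX:101731535-101734269 (Cxcr3, minus), chr9:123806475-123811760 (Cxcr6, plus) and chr1:128588199-128592293 (Cxcr4, minus). Camkk2 is also on chromosome 5, 26.8 to 31.8 megabases from the 4 ligand genes there. Whether strain sequence around the deleted locus reaches them was not tested.

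Of 6689 WT and 7271 CaMKK2 KO barcodes, 5047 and 5632 cells were kept, with 1006 to 1662 cells and 11890210 to 20360454 UMIs (unique molecules counted) per mouse. Levels are in CPM, the UMIs of a gene over all UMIs of the same cells, scaled to a fixed total. Camkk2 itself read 30.9 ± 5.28 CPM in WT and 17.3 ± 4.24 in CaMKK2 KO mice (SD, n = 4 each), with no overlap between the genotypes. It was not at 0 in the KO. Whether the remaining UMIs came from outside the deleted part was not tested. The libraries had 42 barcodes in common, 8 pairs of them among kept cells. Cells were gated into classes by marker genes other than the 9, and 9948 of 10679 fell into a class. The classes were tumor-associated macrophages (TAM), microglia, classical and non-classical monocytes (cMono, ncMono), conventional dendritic cells (DC1, DC2), mature DC, plasmacytoid DC (pDC), B, NK, CD8 T, CD4 T, regulatory T (Treg) and other T cells, 14 in all. Neutrophils, with 25 cells in WT and 19 in CaMKK2 KO, were too few for a test. CD4 T cells numbered 44 in WT and 232 in CaMKK2 KO, 0.817% ± 0.546 and 4.02% ± 1.24 of cells (SD, n = 4). Unsupervised clusters made without the CXC genes split the myeloid gates by library. WT TAMs lay mainly in clusters 0 (39.6%) and 1 (44.1%), and CaMKK2 KO TAMs in clusters 3 (66.1%) and 0 (20.3%). Cluster 1 was 96.8% WT cells and cluster 3 0.9%.

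TAMs and cMonos held most UMIs of every ligand except Cxcl13, which microglia shared. T cells together held 48.8% ± 14.2 of a mouse's Cxcr3 UMIs in WT and 68.6% ± 4.90 in CaMKK2 KO, and 79.4% ± 32.6 and 96.8% ± 0.573 of its Cxcr6 UMIs (SD, n = 4). The WT mean of Cxcr6 was lowered by 1 mouse at 30.6%, and over all cells the WT mice read 2.42 to 66.1 CPM of Cxcr6. Levels below are CPM of a class in a mouse. Over the 8 mice, mean Cxcl9 was 1335 CPM in cMono, 1213 in DC2, 1100 in TAM and 1026 in mature DC, and below 25 in every lymphoid class. The order among the first 4 was not resolved: neighbours differed with exact sign-flip p of 0.0859 to 0.586. Cxcl10 was highest in cMono (2143 CPM), then DC2 (1203), ncMono (1077), TAM (576) and microglia (419), and no neighbouring pair among these passed either (exact p 0.0859 to 0.594). Cxcl13 was at 1336 CPM in microglia and 240 in TAM (exact p = 0.125) and at or below 76.1 elsewhere. Cxcl14 was a TAM transcript, 69.6 CPM against 12.97 in cMono, higher in TAM in 8 of 8 mice (exact p = 0.00781, adjusted p = 0.183). Cxcl16 was highest in mature DC (1240 CPM), then TAM (855) and cMono (447), an order held by 7 of 7 and 8 of 8 mice (exact p = 0.0156 and 0.00781). Cxcl2 was higher in cMono (496 CPM) than in TAM (285) in 7 of 8 mice (exact p = 0.0156). Neutrophils had more Cxcl2 than either, 4459 and 5050 CPM in the 2 WT mice with at least 5 of these cells and 163 and 7138 CPM in the 2 such CaMKK2 KO mice, but held only 4.91% and 1.86% of a mouse's Cxcl2 UMIs on average.

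Among receptors, Cxcr3 was highest in Treg (189 CPM), then CD4 T (133) and other T (117), with CD8 T (70.0) and pDC (64.7) below and NK at 24.1. Between pDC and NK lay DC1, with means of 37.8 CPM in WT and 29.6 in CaMKK2 KO mice. Cxcr6 was highest in CD8 T (497 CPM), then CD4 T (419), other T (244) and Treg (140), and at 7.06 CPM or less in the remaining classes. Cxcr4 was spread more widely: B cells (458 CPM), ncMono (456) and cMono (356) were highest of the 14 classes, and microglia lowest (23.6). Neutrophils, outside this order, read 286 and 273 CPM in 2 WT mice and 1298 and 572 CPM in 2 CaMKK2 KO mice, on 21 to 30 UMIs each. B and ncMono were not separated in Cxcr4 (exact p = 0.797, 4 of 7 mice in that order), whereas cMono exceeded the next class, other T, in 8 of 8 mice (exact p = 0.00781). Over all 9 genes, 17 of 117 neighbouring pairs had an exact p under 0.05 and the smallest adjusted p was 0.183, so the order is a description.

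**Figure D1:**
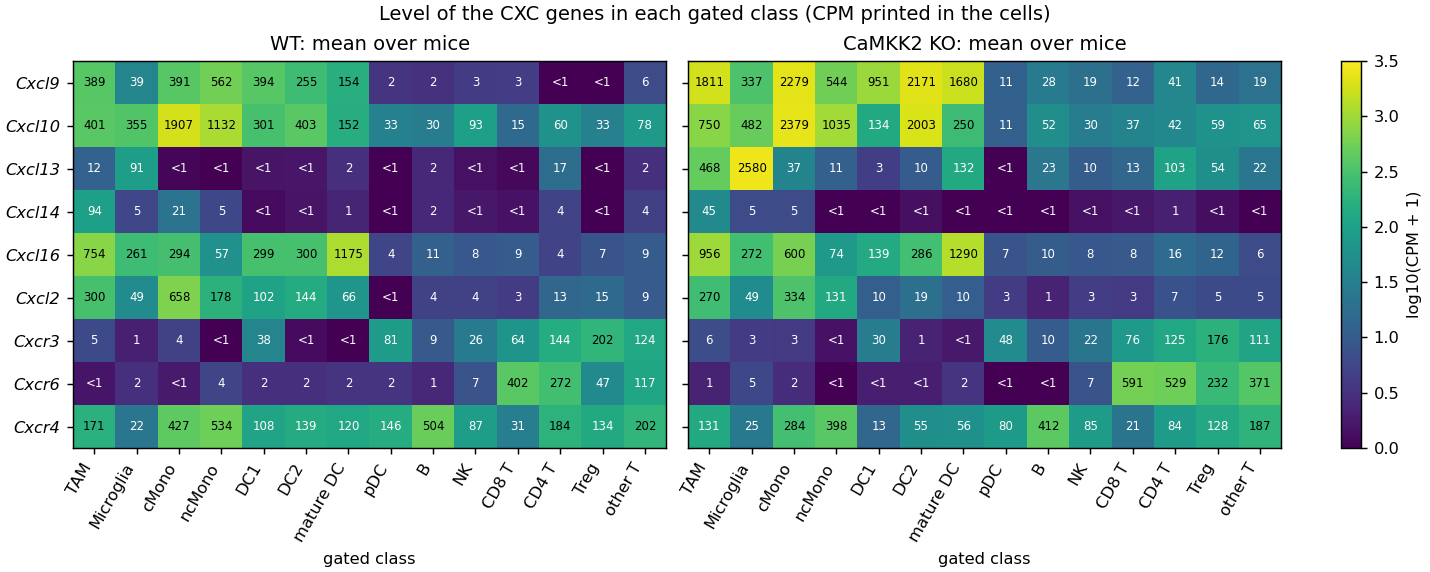
Mean CPM of each of the 9 genes in each of the 14 marker-gated classes, averaged over the mice of each genotype, on a log color scale. Ligands are concentrated in the myeloid classes, Cxcr3 and Cxcr6 in T cells, and Cxcr4 in both.

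The comparison of CaMKK2 KO with WT asked which cells change their chemokine transcripts when the host lacks the kinase. Of 126 pairs of a gene and a class, 53 had the 200 UMIs required for a test, and 7 passed an adjusted p of 0.05 over all genes of the class in edgeR's quasi-likelihood test. Higher in CaMKK2 KO were Cxcl13 in microglia and TAM, Cxcl9 in microglia and mature DC, and Cxcr6 in Treg (5 pairs). Lower in CaMKK2 KO were Cxcr4 in DC1 and Cxcl10 in NK cells. Over all genes and classes 1.98% of tests were called, 1.03% higher and 0.953% lower. In 11 of the 53 pairs the tested mice of the genotypes did not overlap, against 11.9% of all tests. These 11 were 3 in TAM, 2 each in cMono and DC1, and 1 each in microglia, mature DC, CD4 T and Treg, where 14%, 10.8%, 10.5%, 10.3%, 17.6%, 18.6% and 9.21% of all genes did not overlap. The 53 estimates were above 0 in 25 pairs and below 0 in 28. All 4 tested Cxcr6 estimates and all 3 of Cxcl13 were above 0, and all 11 of Cxcr4, all 5 of Cxcl2 and both of Cxcl14 were below. The 200 UMIs were summed over both genotypes, so a pair could pass through the genotype where it was high. CaMKK2 KO held 335 of 337 UMIs for Cxcl13 in cMono and 299 of 346 for Cxcr6 in Treg. WT held 238 of the 252 tested for Cxcr4 in DC1. The directions are therefore a description. The median log2 fold change of all genes lay between -0.11 and 0.13 in every class. For scale, the 7 calls were 1 in TAM, 2 in microglia and 1 each in mature DC, DC1, NK and Treg, where 2.63%, 1.72%, 1.25%, 0.845%, 2.78% and 0.782% of all genes were called. With the whole level in B cells of the same mouse subtracted as free RNA, B cells' own transcripts included, 6 of the 7 could be tested. None of these 6 passed, although each kept its direction (adjusted p 0.195 to 0.842). Cxcr4 in DC1 had too few UMIs left for that test. Calls over all genes fell as well, in TAM from 101 higher and 146 lower of 9407 to 9 and 7 of 5688. Microglia went from 35 and 46 of 4714 to 4 and 6 of 1663. NK went from 124 and 57 of 6518 to 4 and 6 of 2415. Mature DC and Treg had 0 calls among 534 and 542 genes. The standard error of each of the 6 estimates was larger after subtraction. The estimate went from 4.93 to 5.03 for Cxcl13 in microglia and from 3.42 to 3.29 for Cxcl9 in mature DC. Mean Cxcl13 was 2580 CPM in microglia and 23.4 CPM in B cells of CaMKK2 KO mice. The lost calls therefore do not measure free RNA, and its part in the 6 differences was not tested.

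**Figure D2:**
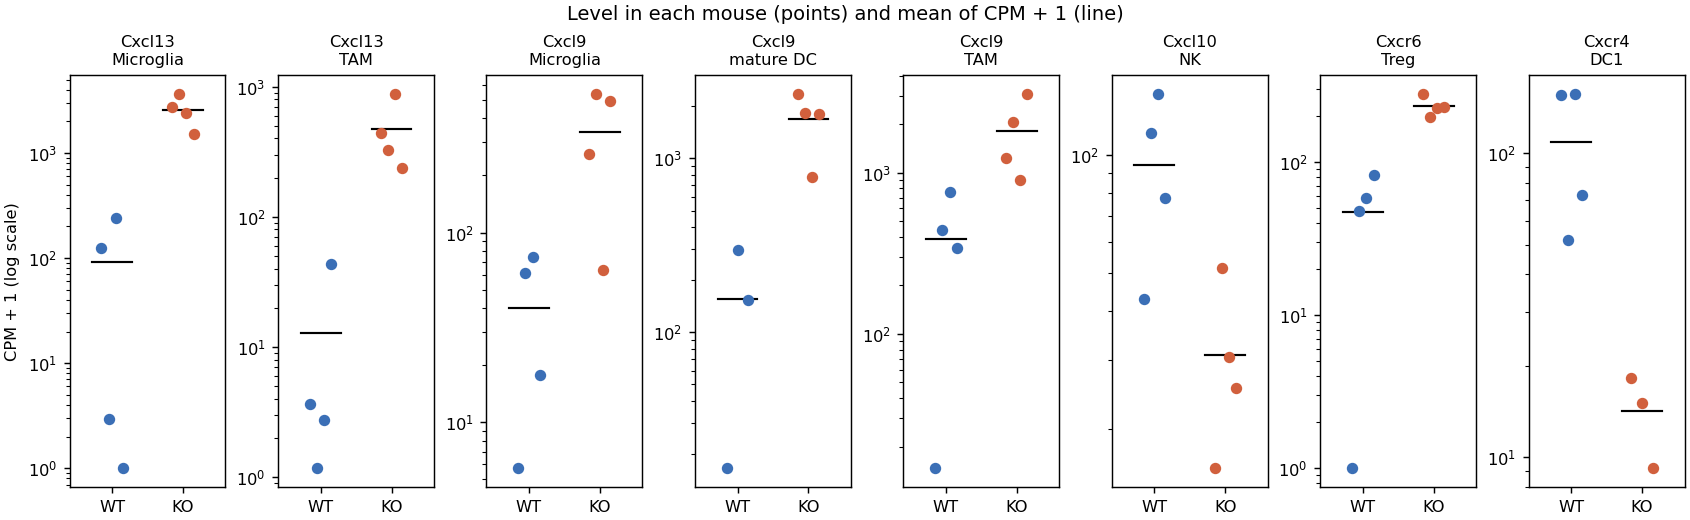
CPM of the gene in each mouse for the 7 called pairs of gene and class and for Cxcl9 in TAM, which was not called. Each point is a mouse, the line is the mean, and the vertical axis is CPM + 1 on a log scale. Mice with fewer than 5 cells of the class are not drawn, among them CaMKK2 KO mouse 4 in DC1. Among the panels, Cxcl9 in microglia and Cxcl10 in NK cells overlap between the genotypes.

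Cxcl13 rose in microglia and TAMs of CaMKK2 KO mice. In microglia the 4 WT mice read 124, 1.96, 240 and 0 CPM and the 4 CaMKK2 KO mice 2761, 3627, 2412 and 1520 CPM. Every CaMKK2 KO mouse was above every WT mouse, and the log2 fold change was 4.93 ± 0.886 (SE, adjusted p = 0.0135). The WT values rested on 340 UMIs in 17 of 319 cells, 123 of them in 1 cell. In CaMKK2 KO, 88 of 150 microglia carried Cxcl13, and 11 of these cells held the larger share of the 5417 UMIs. Thinned to 3000 UMIs per cell, 4.74% ± 7.28 of WT and 49.5% ± 9.39 of CaMKK2 KO microglia had a Cxcl13 UMI (SD, n = 4). The microglia-gated cells of CaMKK2 KO mice also had more of the cMono marker list (7 of 7 markers detected, 375 to 872 CPM summed, against 94.3 to 339 in WT). The part of this in the result was not tested. Cluster 12 held most microglia of both genotypes (135 of 150 in CaMKK2 KO).

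In TAMs, Cxcl13 read 2.67, 0.169, 1.77 and 42.4 CPM in WT and 437, 323, 875 and 237 CPM in CaMKK2 KO mice. The groups did not overlap, with a log2 fold change of 5.26 ± 1.11 (adjusted p = 0.0428). In WT mouse 4, 1 cell held 361 UMIs of the 408 counted in all WT TAMs. In CaMKK2 KO the transcript lay in a minority of cells: 333 of 1423 TAMs had a UMI, and 14 cells held the larger share of 12377. The call was lost when WT mouse 1, 2 or 3 or CaMKK2 KO mouse 1, 2 or 4 was left out (adjusted p 0.0655 to 0.101, log2 fold change 4.88 to 5.48). It was also lost with outlying cells kept, with likely doublets kept and with clusters in place of gates (adjusted p 0.0551 to 0.0724). TAM-gated cells of CaMKK2 KO mice carried less of the microglia list (224 to 406 CPM, against 487 to 653 in WT) and of the TAM list (13100 to 17950, against 18050 to 18790), and more of the T cell list (20.6 to 25.2, against 13.04 to 14.3). Within cluster 0, which both libraries share, WT mice read 0 to 1.66 CPM and CaMKK2 KO mice 264 to 3427 CPM (exact permutation p = 0.0286, the smallest 4 against 4 mice can give). CaMKK2 KO mice 2 and 4 had 6 and 10 cells there.

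The Cxcl13-rich TAMs carried more microglia markers than their neighbours. Among CaMKK2 KO TAMs with at least 10 Cxcl13 UMIs, 69 of 101 (68.3%) had 3 or more microglia markers detected, against 333 of 1090 (30.6%) of those with no Cxcl13 UMI. In WT, 1155 of 1760 TAMs without Cxcl13 (65.6%) had 3 or more. Cells were pooled over mice and not thinned here. Depth per cell and the mix of mice enter these shares, and their part was not tested. Cxcl13 was seen in 0.237% of WT and 6.38% of CaMKK2 KO B cells, a class used here as background for free RNA. Median depths were 3553 and 4988 UMIs in B cells and 16049 and 15848 in TAM. Whether the UMIs in B cells were free RNA was not tested. The 11.4% ± 3.05 of CaMKK2 KO TAMs (WT 0.375% ± 0.285) stood above the B cell share. In cMono, Cxcl13 was 0 to 0.402 CPM in WT and 6.86 to 119.9 in CaMKK2 KO, but the 4.32% of CaMKK2 KO cells with a UMI was below the B cell share, and the adjusted p was 0.0749. Of the 335 UMIs in CaMKK2 KO cMonos, 5 of 1309 cells held the larger share, 92 of them in 1 cell, and the mean level was 37.2 CPM in cMono and 23.4 CPM in B cells. The part of free RNA in the cMono level was not tested.

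Cxcl9, the interferon-induced CXCR3 ligand, was called higher in mature DC and in microglia of CaMKK2 KO mice. In mature DC, WT mice 2 to 4 read 15.5, 295 and 153 CPM and the 4 CaMKK2 KO mice 2336, 1811, 776 and 1795 CPM. WT mouse 1, with 3 mature DC and no Cxcl9 UMI, was left out. Every CaMKK2 KO mouse was above every WT mouse (log2 fold change 3.42 ± 0.593, adjusted p = 0.0111), and 51 of 101 CaMKK2 KO cells had a UMI, against 15 of 70. In CaMKK2 KO, 3 cells held the larger share of the 1741 UMIs. Without WT mouse 4 the adjusted p was 0.0712, and with clusters in place of gates 0.0594. The NK marker list was lower in CaMKK2 KO mature DC (3.98 to 35.5 CPM, against 61.1 to 158), and its part in the result was not tested.

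In microglia, Cxcl9 read 4.72, 60.01, 73.6 and 16.8 CPM in WT and 259, 535, 62.3 and 490.3 CPM in CaMKK2 KO mice. CaMKK2 KO mouse 3 lay within the WT range, and the log2 fold change was 3.20 ± 0.706 (adjusted p = 0.0378). Unthinned, 21 of 319 WT and 49 of 150 CaMKK2 KO microglia had a Cxcl9 UMI. Only 3 WT cells held the larger share of 141 UMIs, and 4 CaMKK2 KO cells that of 573. Leaving out WT mouse 1, 2 or 4 or CaMKK2 KO mouse 1, 2 or 4 ended the call (adjusted p 0.0668 to 0.105, log2 fold change 2.69 to 3.80), as did keeping only cells with a clear lead (0.0887) or weighting cells equally in limma (0.126). The same move of the cMono list seen with Cxcl13 stood beside this value.

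TAMs and cMonos, where most Cxcl9 UMIs lay, gave large estimates that did not pass over all genes. TAM levels were 13.7, 442, 761 and 339 CPM in WT and 1226, 2050, 905 and 3065 CPM in CaMKK2 KO. The genotypes did not overlap (exact permutation p = 0.0286), and the log2 fold change was 2.22 ± 0.854 (adjusted p = 0.172). Within cluster 0 they overlapped, with 4.665, 536, 957.6 and 204.2 CPM in WT and 1071, 991.5, 578.1 and 1326 CPM in CaMKK2 KO mice. CaMKK2 KO mice 2 and 4 had 6 and 10 cells in that cluster. In cMono, WT mice read 0, 301, 822 and 440 CPM and CaMKK2 KO mice 862, 3585, 751 and 3917 CPM (2.52 ± 0.968, adjusted p = 0.221). CaMKK2 KO mouse 3 was below WT mouse 3 there. WT mouse 1 was the lowest of all 8 in both classes and in DC2 (4.79 CPM), and its 47 cMono were the fewest of any mouse. In DC2 the other WT mice read 156 to 641 CPM and the CaMKK2 KO mice 198 to 5059 (3.07 ± 1.08, adjusted p = 0.222, and 0.0421 without CaMKK2 KO mouse 3), with 65.0% of DC2 cells near the gate's cut in each genotype. Without that mouse, calls over all DC2 genes rose from 16 higher and 13 lower of 3413 to 185 and 102 of 3066. DC1 gave 1.28 ± 0.476 (adjusted p = 0.406) and ncMono -0.03 ± 1.33 (adjusted p = 1.00).

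More cells carried Cxcl9 in CaMKK2 KO. Thinned to 3000 UMIs, 14.9% ± 9.59 of WT and 49.5% ± 16.0 of CaMKK2 KO TAMs had a UMI, and 11.1% ± 8.39 and 43.8% ± 22.0 of cMonos (SD, n = 4). Unthinned, these were 416 of 1779 and 906 of 1423 TAMs and 138 of 689 and 773 of 1309 cMonos. In B cells the same measure was 0.803% ± 1.12 and 9.49% ± 2.31, which is taken as the free RNA background. In WT TAMs 27 of 1779 cells held the larger share of Cxcl9 UMIs, and in CaMKK2 KO TAMs 93 of 1423.

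Cxcl10, the other CXCR3 ligand tested, was not called in any myeloid class. TAM levels were 63.8, 316, 725 and 500 CPM in WT and 693, 918, 484 and 908 CPM in CaMKK2 KO, overlapping (0.90 ± 0.558, adjusted p = 0.368). In cMono, WT mice spanned 20.9 to 3936 CPM and CaMKK2 KO mice 1649 to 3065 (0.31 ± 0.855, adjusted p = 0.902). WT mouse 1 was again the lowest in both. The remaining myeloid estimates ran from -1.21 in DC1 to 2.30 in DC2 (adjusted p 0.240 to 1.00). Without CaMKK2 KO mouse 3 the DC2 value was 2.68 (adjusted p = 0.0408), in the fit where 185 higher and 102 lower of all 3066 DC2 genes were called.

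In NK cells Cxcl10 fell in CaMKK2 KO, with 41.9, 113, 142 and 76.8 CPM in WT and 14.9, 50.4, 29.5 and 24.4 CPM in CaMKK2 KO mice. The log2 fold change was -1.60 ± 0.340 (adjusted p = 0.0220). CaMKK2 KO mouse 2 was above WT mouse 1. Only 7 of 552 WT NK cells held the larger share of the 595 UMIs. The share of NK cells with a UMI, 9.22% ± 2.50 in WT and 7.28% ± 2.79 in CaMKK2 KO, was near that of B cells (7.17% ± 2.30 and 6.91% ± 3.74, at 3553 and 4988 median UMIs against 8300 and 6400 in NK). The level in WT was higher in NK (93.4 CPM) than in B cells (29.7 CPM), and the part of free RNA in the result was not tested. The cMono list was higher in CaMKK2 KO NK cells (1112 to 1202 CPM, against 666 to 911) and the TAM list lower (88.0 to 129, against 147 to 184). Leaving out WT mouse 2, 3 or 4 or CaMKK2 KO mouse 1 or 4 ended the call (adjusted p 0.0501 to 0.0724, log2 fold change -1.34 to -1.69), as did keeping outlying cells (0.0551) or weighting cells equally in limma (0.103). Taken as the difference in mean log2(CPM + 1) over mice, the genotype effect on Cxcl10 was lower in NK cells than in TAM, cMono, DC2 and CD8 T. The gaps were 2.91 to 3.80 (exact permutation p = 0.0286 each), but among 162 such pairs of classes no adjusted p was under 0.386.

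**Figure D3:**
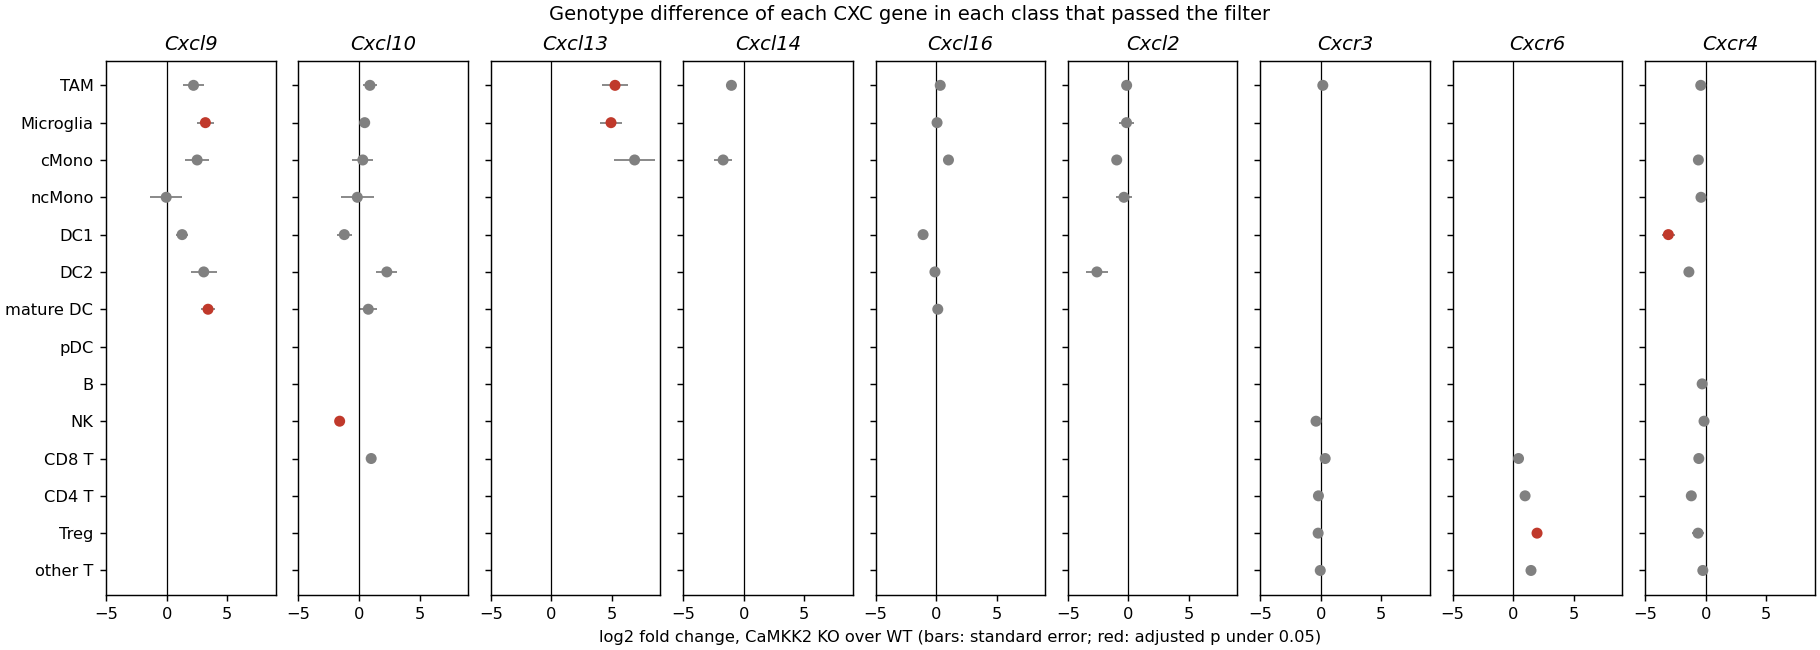
Log2 fold change (CaMKK2 KO over WT) with its standard error for the 53 tested pairs, by gene and class, with the 7 calls in red. The called Cxcl13 estimates lie at 4.93 and 5.26, and the 11 Cxcr4 estimates all lie below 0. Of these 11, 3 are smaller than their standard error, as are 12 of the other 42.

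Cxcl16, the membrane-anchored CXCR6 ligand, was present in nearly every TAM and was not called in any class. It was seen in 1737 of 1779 WT and 1399 of 1423 CaMKK2 KO TAMs. TAM levels were 652, 787, 809.5 and 768 CPM in WT and 802, 1014, 852 and 1154 CPM in CaMKK2 KO (0.34 ± 0.132, adjusted p = 0.175). In cMono, WT mice read 211, 220.1, 325 and 421 CPM and CaMKK2 KO mice 412, 613, 584 and 790 CPM. CaMKK2 KO mouse 1 was just below WT mouse 4, and the estimate of 1.02 ± 0.255 had an adjusted p of 0.0742. Without WT mouse 4 the adjusted p was 0.0464 (1.24). DC1 pointed the other way (215 to 487 CPM in WT, 93.3 to 189 in 3 CaMKK2 KO mice, -1.08 ± 0.324, adjusted p = 0.252), and mature DC gave 0.14 ± 0.179 (1175 ± 196 and 1290 ± 152 CPM, adjusted p = 0.760).

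Cxcl14 and Cxcl2 had estimates below 0 in every class tested, without a call. TAM Cxcl14 was 129.8, 88.9, 72.7 and 83.9 CPM in WT and 67.5, 28.8, 68.9 and 16.2 CPM in CaMKK2 KO mice. The genotypes did not overlap (exact permutation p = 0.0286, -1.02 ± 0.391, adjusted p = 0.173), though 9.69% of all TAM genes were likewise below WT in every CaMKK2 KO mouse. Within cluster 0 the direction turned, with 95.7 to 154 CPM in WT and 125 to 280 in CaMKK2 KO (exact permutation p = 0.200). In cMono, where WT Cxcl14 lay between 12.1 and 36.1 CPM, CaMKK2 KO mice read 0.231 to 13.9 (-1.70 ± 0.742, adjusted p = 0.277).

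Cxcl2, the neutrophil attractant, did not overlap between the genotypes in cMono, with 917, 700.3, 421 and 592 CPM in WT and 299.6, 417, 314.5 and 304 CPM in CaMKK2 KO mice. The log2 fold change was -0.97 ± 0.223 (exact permutation p = 0.0286), and the adjusted p was 0.0558. Without WT mouse 3 it was 0.0265 (-1.14). The neutrophil marker list summed to 175 to 2511 CPM in WT cMonos and 160.3 to 356 in CaMKK2 KO (8 markers), and its part in the Cxcl2 difference was not tested. In TAM the genotypes overlapped (-0.15 ± 0.308, adjusted p = 0.807), with CaMKK2 KO mouse 2 the highest of all 8 at 489 CPM. In DC2 the WT mice split into 304 and 214 CPM against 31.7 and 24.6, and CaMKK2 KO mice read 0 to 39.1 (-2.61 ± 0.913, adjusted p = 0.222). WT mouse 1 had the highest Cxcl2 of the 8 mice in cMono, DC1 and DC2.

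Among the receptors, Cxcr6 rose in Treg of CaMKK2 KO mice. The WT mice read 0, 47.0, 57.4 and 82.2 CPM and the CaMKK2 KO mice 278, 198, 224 and 229 CPM. The lowest CaMKK2 KO mouse was above the highest WT mouse (log2 fold change 1.97 ± 0.271, adjusted p = 0.00166), and the call held in the 7 fits that left out 1 mouse (1.82 to 2.29, adjusted p 0.00146 to 0.0172). Without CaMKK2 KO mouse 3 the gene fell below 200 UMIs and could not be fitted. WT mouse 1 had 6 Treg cells, and with cells weighted equally in limma the value was 3.54 with an adjusted p of 0.356. A UMI was seen in 11.4% ± 7.87 of WT and 31.6% ± 7.41 of CaMKK2 KO Treg, against 0.643% ± 1.29 of WT B cells and 0 of 190 CaMKK2 KO B cells, which allows a share of up to 1.58%. Unthinned, 20.7% of 111 WT and 40.0% of 155 CaMKK2 KO Treg had a UMI. The T cell list was also higher in CaMKK2 KO Treg (5938 to 7028 CPM summed, against 4631 to 5676).

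The other T cell classes had Cxcr6 estimates in the same direction that did not pass. Other T cells read 22.7, 108, 116 and 223 CPM in WT and 407, 458, 210.3 and 410 in CaMKK2 KO (1.47 ± 0.374, adjusted p = 0.0525). Without WT mouse 4 or CaMKK2 KO mouse 3 the adjusted p was 0.04935 or 0.0389. CD4 T cells of WT mice 2 to 4 read 194, 428 and 193 CPM and those of CaMKK2 KO mice 437, 538, 572 and 567 CPM, without overlap (0.98 ± 0.268, adjusted p = 0.121, and 0.0248 without WT mouse 3). WT mouse 1 had no CD4 T cell. CD8 T cells, the class with the highest level, read 59.6, 416, 613 and 522 CPM in WT and 723, 369.9, 524 and 747 CPM in CaMKK2 KO (0.44 ± 0.340, adjusted p = 0.550). WT mouse 1, with 16 CD8 T cells, was the lowest. Taken as the difference in mean log2(CPM + 1) over mice, a measure other than these estimates, the genotype effect was larger in Treg than in CD8 T. The gap was 2.47 (exact permutation p = 0.0286, adjusted p = 0.386 over 162 pairs). WT mouse 1, at 0 CPM on 6 Treg cells, enters that value with the same weight as the other mice. The T cell list was higher in CaMKK2 KO in CD4 T and other T as well.

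Cxcr3 was not called in any of its 6 tested classes. Treg read 183 to 228 CPM in WT and 142 to 220.5 in CaMKK2 KO (-0.22 ± 0.181, adjusted p = 0.606), CD4 T 103 to 166 and 90.7 to 148 (-0.20 ± 0.290, adjusted p = 0.765), and CD8 T 48.6 to 99.3 and 48.9 to 109.8 (0.36 ± 0.239, adjusted p = 0.475). NK cells read 18.7 to 33.2 and 17.9 to 31.5 CPM (-0.40 ± 0.219, adjusted p = 0.359). The 6 estimates lay between -0.40 and 0.36, and a p that misses the threshold does not show equal levels.

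Cxcr4 fell in DC1 of CaMKK2 KO mice, and its estimates were below 0 in all 11 tested classes. DC1 of the 4 WT mice read 154, 51.0, 155 and 71.9 CPM and those of CaMKK2 KO mice 1 to 3 read 17.2, 14.1 and 8.22 CPM. CaMKK2 KO mouse 4 was left out with 4 DC1 cells, whose 9 Cxcr4 UMIs gave 111 CPM, within the WT range. The 7 tested mice did not overlap between genotypes (-3.08 ± 0.524, adjusted p = 0.0161), and 21.6% ± 8.75 of WT and 3.78% ± 0.976 of CaMKK2 KO DC1 had a UMI (unthinned, 56 of the 113 WT cells). The test rested on 252 UMIs, 238 of them from 113 WT cells. Leaving out CaMKK2 KO mouse 1, 2 or 3 ended the call (adjusted p 0.0601 to 0.122, log2 fold change -2.77 to -3.29). Of the WT mice only mouse 2 could be left out with 200 UMIs remaining, and the call then held (-3.28, adjusted p = 0.00604). Keeping outlying cells (-2.14, adjusted p = 0.106) or likely doublets (-2.20, adjusted p = 0.174) also ended the call, and both settings brought CaMKK2 KO mouse 4 into the test. Several marker lists differed in DC1 without overlap, such as the mature DC list (106 to 158 CPM in WT, 41.4 to 84.8 in CaMKK2 KO) and the ncMono list (40.8 to 56.6 and 65.5 to 147), and their part in the result was not tested.

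In DC2, Cxcr4 read 201, 58.8, 173 and 124 CPM in WT and 67.9, 38.6, 46.0 and 65.5 in CaMKK2 KO, with WT mouse 2 inside the CaMKK2 KO range (-1.38 ± 0.370, adjusted p = 0.145). Without WT mouse 2 it was -1.64 (adjusted p = 0.0299). B cells, the class with the highest level, read 432 to 591 and 335 to 468 CPM (-0.28 ± 0.171, adjusted p = 0.333). TAM (-0.40 ± 0.282) and cMono (-0.59 ± 0.269) had adjusted p of 0.431 and 0.296.

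**Figure D4:**
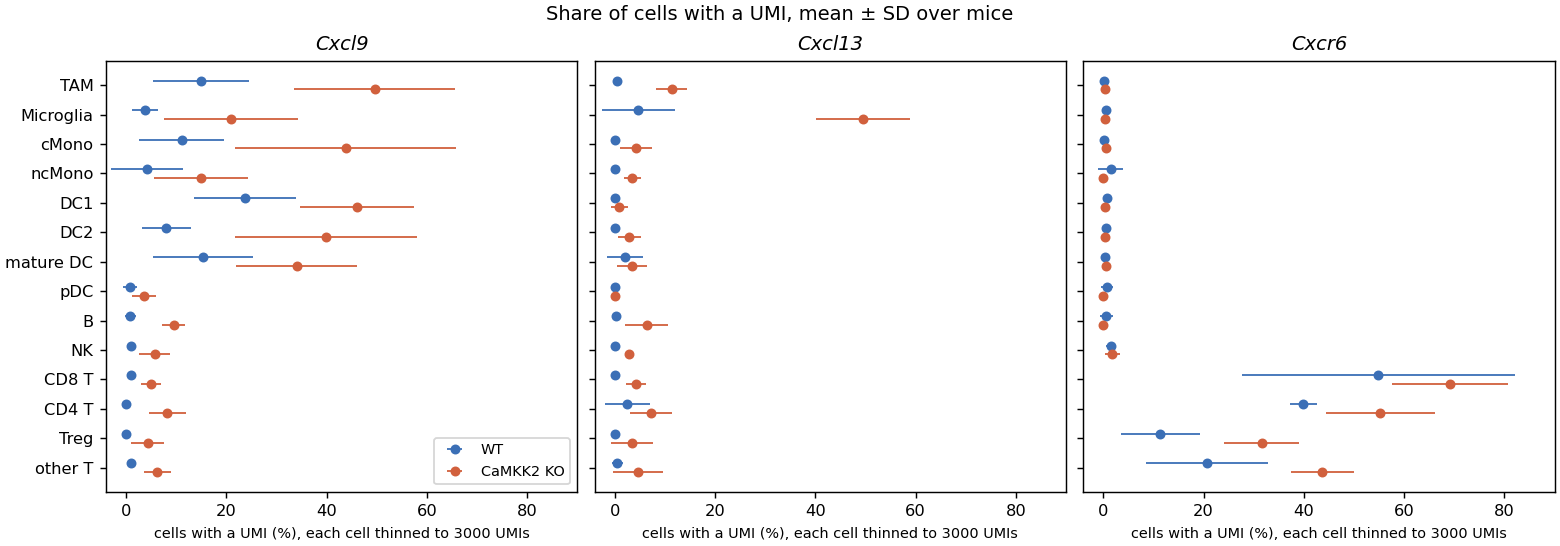
Percent of cells with a UMI of Cxcl9, Cxcl13 or Cxcr6 after thinning each cell to 3000 UMIs, by class and genotype (points are means over mice, bars the SD). Cxcl13 in microglia (4.74% in WT, 49.5% in CaMKK2 KO), Cxcl9 in TAM (14.9% and 49.5%) and Cxcr6 in Treg (11.4% and 31.6%) stand above the B cell share of the same gene.

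Which cells held each gene's UMIs depends on class size as well as level. TAMs held 56.2% ± 13.52 of a mouse's Cxcl9 UMIs in WT and 48.6% ± 22.0 in CaMKK2 KO, and cMonos 16.4% ± 13.53 and 34.98% ± 22.2 (SD, n = 4). DC1 held 16.0% ± 23.3 and 1.37% ± 0.594 of Cxcl9, a WT mean raised by 1 mouse at 50.8%. Of Cxcl10, cMonos held 36.7% ± 27.4 and 54.0% ± 14.4. TAMs held 73.7% ± 6.85 and 58.7% ± 15.6 of Cxcl16 and 91.6% ± 4.39 and 88.0% ± 9.79 of Cxcl14. The Cxcl13 share of microglia was 51.6% ± 45.2 in WT, on few UMIs, and 32.9% ± 8.63 in CaMKK2 KO, where TAMs held 60.4% ± 11.5.

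On the receptor side, CD4 T cells held 1.52% ± 1.11 of Cxcr6 UMIs in WT and 25.8% ± 19.0 in CaMKK2 KO, and 2.55% ± 1.91 and 20.1% ± 12.5 of Cxcr3 UMIs. In both genes every CaMKK2 KO mouse was above every WT mouse (exact permutation p = 0.0286 each). CD4 T cells were also a larger share of cells, while their level per UMI of Cxcr3 did not pass the test. CD8 T cells held 71.9% ± 31.4 and 54.8% ± 22.9 of Cxcr6, a WT mean lowered by 1 mouse at 25.0%. NK cells held less of Cxcr3 in CaMKK2 KO (16.1% ± 1.07 and 10.97% ± 2.35, exact permutation p = 0.0286). TAMs held 44.2% ± 17.2 and 28.4% ± 9.94 of Cxcr4. Over all genes and classes 17 of these shares had an exact p under 0.05 and the smallest adjusted p was 0.212, so none passed over the family.

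**Figure D5:**
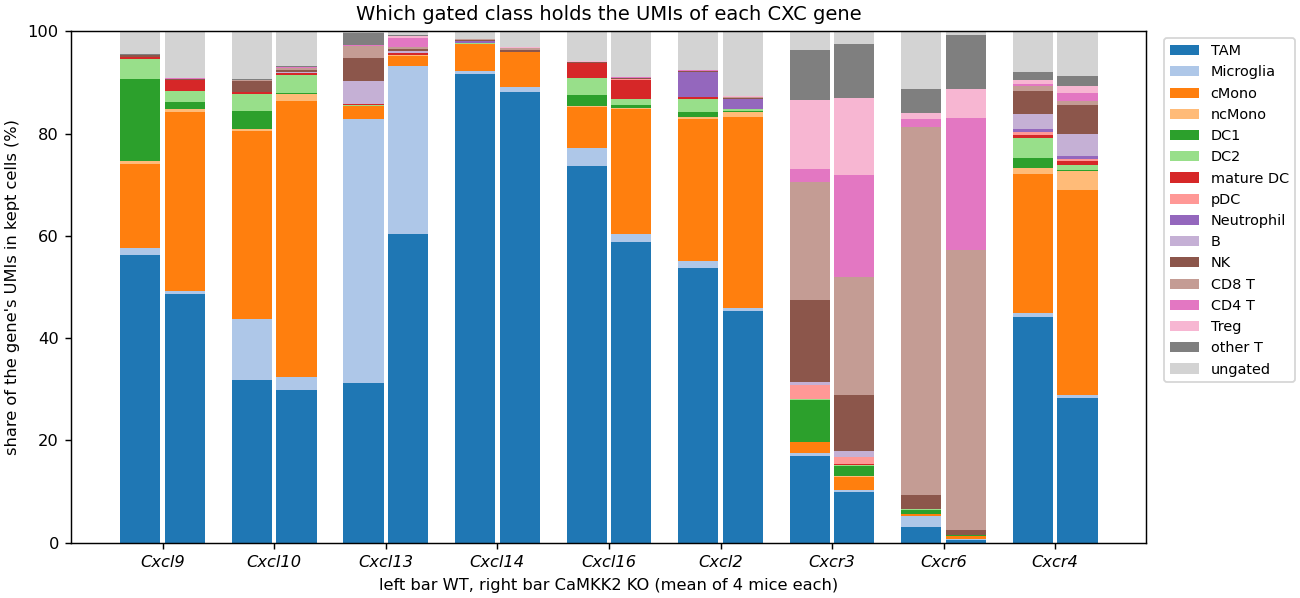
Percent of each gene's UMIs held by each class, averaged over the 4 mice of each genotype (stacked bars, WT on the left and CaMKK2 KO on the right, ungated cells in grey). Cxcl14 is held by TAMs (91.6% and 88.0%), and the CD4 T share of Cxcr6 is 1.52% in WT and 25.8% in CaMKK2 KO.

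Other genes of the CXC pathway were read from lists chosen with earlier results of these data known. Of 14 further CXC ligands and receptors, 3 had the UMIs for a test, Cxcl3 and Pf4 in TAM and cMono and Cxcr5 in B cells, and none of the 5 tests was called. Cxcl11, also a CXCR3 ligand, was among the 14 and did not have the UMIs for a test in any class. Cxcr5, the receptor of CXCL13, was at 89.3 ± 18.3 CPM in WT B cells and 118 ± 29.4 in CaMKK2 KO (0.44 ± 0.245, adjusted p = 0.296). Pf4 in TAM was 404 ± 242 and 171.5 ± 113 CPM (-1.23 ± 0.685, adjusted p = 0.320).

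Of the proteins that shed, trim or hold chemokines, 29 tests over 6 genes gave 2 calls up and 1 down (2.63% of all genes were called in TAM and 2.06% in cMono). Anpep, an aminopeptidase, rose in TAM (18.9 ± 4.65 to 63.2 ± 28.8 CPM, 1.74 ± 0.323, adjusted p = 0.0255) and in cMono (4.52 ± 3.96 to 25.3 ± 6.89, 2.32 ± 0.426, adjusted p = 0.0221). Sdc1, a heparan sulfate proteoglycan, fell in cMono (55.9 ± 32.0 to 14.7 ± 4.98, adjusted p = 0.0375). Adam10, the sheddase of CXCL16, was not called in any class (TAM 89.9 ± 2.47 and 95.4 ± 11.5 CPM, adjusted p = 0.618). In TAM the list's median was 0.09, against -0.08 for all genes, and in cMono 0.19 against -0.02.

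Of 99 tests on 11 genes of the interferon-gamma pathway, 2 were called, both Irf1, an interferon-induced transcription factor, a share near the 1.98% of all tests. Irf1 rose in microglia (72.0 ± 22.3 to 172 ± 63.9 CPM, 1.26 ± 0.251, adjusted p = 0.0224) and in mature DC (291 ± 51.3 to 617 ± 130, 1.08 ± 0.218, adjusted p = 0.0250). Ifng itself was 56.4 ± 40.2 and 129 ± 67.1 CPM in NK (adjusted p = 0.203) and 208 ± 80.5 and 246 ± 112 in CD8 T (adjusted p = 0.859). The list's median was 0.45 in TAM (7 of 10 genes above 0), 0.09 in microglia and 0.17 in cMono. For all genes these classes had -0.08, -0.11 and -0.02. In DC1 (-0.15), pDC (-0.24), CD4 T (-0.27) and Treg (-0.008) the list's median was below 0. Elsewhere it was above 0.

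Cxcl9 and its partner Cxcl10 were seen together in part of the cells. Of CaMKK2 KO TAMs, 500 of 1423 (35.1%) had both, and Cxcl10 was seen in 55.2% of the cells with Cxcl9 and 35.01% of those without. In WT, 210 of 1779 (11.8%) had both, with 50.5% and 29.1%. In CaMKK2 KO cMonos 538 of 1309 (41.1%) had both, against 110 of 689 (16.0%) in WT. Cxcl13 was seen in 23.1% of CaMKK2 KO TAMs with Cxcl9 and 24.0% of those without. Of CD8 T cells, 120 of 407 in WT and 137 of 358 in CaMKK2 KO carried both Cxcr3 and Cxcr6. These shares were not thinned, and depth per cell enters them.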

How the data were processed

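The measurement was 10x Chromium 3′ single-cell RNA-seq with a hashtag library per genotype. The deposited values are raw UMI counts per gene and barcode, which the authors made with bcl2fastq 2.20, Cell Ranger 4.0.0 and STAR 2.7.5c (the versions are credited to the submitters' processing notes) against mm10. HTODemux read the mouse of each cell from the deposited hashtag counts (Seurat 5.3.0, quantile 0.99). Hashtag doublets and negatives, cells beyond 3 median absolute deviations (scuttle 1.12.0) and Scrublet doublets (scanpy 1.11.5) were removed. The labels do not number the mice, so the numbers only name hashtags.

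Classes were gated cell by cell from marker genes, and the scoring rule was set after the marker values were seen. UMIs were summed per mouse and class. Classes with at least 5 cells in 3 mice per genotype were tested with edgeR 4.0.16 (glmQLFit, glmQLFTest, library size the class total, genes with at least 200 UMIs), Benjamini-Hochberg over all genes of the class, threshold 0.05. The step recovered 163 to 186 of 200 changed genes simulated in each of 7 classes, with 6 to 14 false calls. Exact two-sided permutation tests compared 4 with 4 mice (smallest p 0.0286), or 3 with 4 (0.0571), and sign flips compared classes over up to 8 mice, on log2(CPM + 1). Detection shares were thinned to 3000 UMIs, leaving out shallower cells (32 of 169 WT and 3 of 193 CaMKK2 KO B cells, 39 and 44 TAMs). Genes named were the 9 members and each list gene that was called or is a direct partner of a member, and some list genes are not reported here. Alternatives were DESeq2 1.42.0, limma 3.58.1 on cell means, TMM scaling, other filters, clusters and leaving out each mouse. The members and lists were chosen with earlier results of these data known. Promoters are from RefSeq, with 8 of the 9 genes matched.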

Additional observations from a re-analysis of the deposited data

Results flagged for a closer look

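In 8 of 92 groups of 4 mice, 1 mouse lay far from the other 3 by Dixon's test, where chance flags about 1 in 20 groups. CaMKK2 KO mouse 2 had the highest Cxcl2 of its genotype in 3 myeloid classes: 489.2 CPM in TAM (the others at most 215.7), 133.8 CPM in microglia (at most 28.8) and 417.2 CPM in cMono (at most 314.5). Cxcl13 was 42.36 CPM in TAMs of WT mouse 4 (at most 2.67 in the others) and 119.9 CPM in cMonos of CaMKK2 KO mouse 3 (at most 11.8). Cxcr3 was 31.53 CPM in NK cells of CaMKK2 KO mouse 4 (at most 19.4) and 99.25 CPM in the 16 CD8 T cells of WT mouse 1 (at most 56.7). Cxcl10 was 68.9 CPM in CD8 T cells of CaMKK2 KO mouse 4 (at most 31.4), a class of 42 cells in that mouse.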

How the results depend on the processing

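With 1 choice changed at a time, the 7 calls kept their direction in all 118 alternatives and their call in 80. Both counts include Cxcl13 in TAMs of cluster 0 alone, which was judged by an unadjusted exact permutation p of 0.0286. Over the 8 fits with 1 mouse left out, 3 to 8 pairs were called. Called pairs numbered 12 with DESeq2, 36 with no filter on low counts and 13 with at least 50 UMIs. They numbered 4 with outlying cells kept, 4 with clusters and 0 with free RNA subtracted. The last of these settings took off the whole B cell level, so its lost calls do not measure free RNA. Calls over all genes of TAM moved too, from 101 higher and 146 lower of 9407 to 388 and 235 of 9407 with DESeq2. They stood at 222 and 245 of 17846 with no filter and 134 and 180 of 11232 with at least 50 UMIs. Outlying cells kept gave 95 and 140 of 9704, and clusters 114 and 170 of 9724. A changed filter also changes which pairs are tested, so 36 and 13 have no common denominator with the 7 calls. With no filter the standard error of microglial Cxcl13 was 0.286 (0.886 as reported), and the cause was not tested for any of these changes. Cxcl13 in TAM missed the threshold with outlying cells kept (4.35), Scrublet doublets kept (4.15), clusters (4.99) and free RNA subtracted (5.31), with 4.76 to 8.13 over mice left out. With free RNA subtracted the others were also lost, at 5.03 (Cxcl13) and 3.32 (Cxcl9) in microglia, 3.29 (Cxcl9 in mature DC), -2.21 (Cxcl10 in NK) and 2.21 (Cxcr6 in Treg). That setting, clusters and a clear lead only had no value for Cxcr4 in DC1, where 37.2% of WT and 33.9% of CaMKK2 KO cells were near the gate's cut. Other losses were Cxcl9 in microglia with a clear lead only (2.95) or cells weighted equally (2.89), Cxcl9 in mature DC with clusters (3.27), Cxcr4 in DC1 with outlying cells (-2.14) or Scrublet doublets kept (-2.20), Cxcl10 in NK with outlying cells kept (-1.32) or cells weighted equally (-1.26), and Cxcr6 in Treg with cells weighted equally (3.54). With mice left out in turn, Cxcl9 in microglia ran from 2.69 to 3.80, Cxcl13 in microglia from 4.44 to 5.72, Cxcr4 in DC1 from -3.29 to -2.77, Cxcl9 in mature DC from 2.86 to 4.48, Cxcl10 in NK from -1.98 to -1.34 and Cxcr6 in Treg from 1.82 to 2.29. Under 200 UMIs remained for Cxcr6 in Treg without CaMKK2 KO mouse 3 and for Cxcr4 in DC1 without WT mouse 1, 3 or 4, which have no value. With outlying cells or Scrublet doublets kept, CaMKK2 KO mouse 4 also entered the DC1 test.

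Of 764 alternatives of the 46 uncalled pairs, 51 turned the direction and 36 passed the threshold. The 36 include Cxcr3 in TAMs of cluster 0 alone (0.56), judged by an unadjusted exact permutation p of 0.0286. Turned values with cells weighted equally were -0.027 (Cxcr3 in TAM), -0.029 (Cxcl16 in microglia), 4.21 (Cxcl9) and 1.33 (Cxcl10) in ncMono, 0.091 (Cxcr4 in CD8 T), 0.48 (Cxcr3 in CD4 T), 1.33 (Cxcr4) and 0.064 (Cxcr3) in Treg and 0.014 (Cxcr3 in other T). With clusters they were 0.085 (Cxcl2 in TAM), -0.58 (Cxcl10 in microglia), 0.10 (Cxcl10 in DC1), 0.051 (Cxcl16 in DC2), -0.49 (Cxcl10 in mature DC) and 0.22 (Cxcr3 in other T), and TAM held 1.65 (Cxcl9) and 9.87 (Cxcl2) percentage points more of the UMIs in CaMKK2 KO, while cMono stood below DC2 in Cxcl9 (-0.40) and below TAM in Cxcl2 (-0.21). Cxcl2 in microglia turned to 0.15 with DESeq2, 0.54 with Scrublet doublets kept, 0.22 with a clear lead only and 0.31 with free RNA subtracted. In ncMono, Cxcl9 turned to 0.057 with Scrublet doublets kept, 9.25 with a clear lead only and 0.0093 with free RNA subtracted, and Cxcl10 to 3.90 with a clear lead only. With a clear lead only Cxcl16 in DC2 was 0.22, and with outlying cells kept Cxcr4 in NK was 0.025 and Cxcl10 in CD8 T -0.13. Within TAMs of cluster 0, chosen after seeing the data, Cxcl10 was -0.93 and Cxcl14 0.44. Leaving out mice turned Cxcl2 in TAM (-0.61 to 0.0021) and microglia (-1.15 to 0.15), Cxcl16 in microglia (-0.057 to 0.25) and DC2 (-0.27 to 0.0435), Cxcl10 in cMono (-0.092 to 0.94) and ncMono (-0.73 to 5.52), Cxcl9 in ncMono (-1.04 to 9.87), Cxcr4 in ncMono (-0.83 to 0.042), NK (-0.34 to 0.14) and other T (-0.53 to 0.071), Cxcr3 in other T (-0.22 to 0.11), the TAM share of Cxcl14 UMIs (-6.37 to 0.87 percentage points) and Cxcr4 in B against ncMono (-0.085 to 0.24). TMM scaling moved the median of all genes by more than 0.1 in microglia (0.11) and other T (-0.10), and no call changed with it.

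No paired analysis was possible because the labels give no replicate numbers that tie a WT mouse to a CaMKK2 KO mouse. Depth limits the lymphoid ligand levels and the receptor levels in small classes, where 1 to 3 UMIs set a mouse's value.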

Other observations

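Across 83 class-by-mouse units (classes of a mouse with at least 20 cells), the gene whose log2 level was most like each of the 9 was taken among 8430 genes. The units of 1 mouse share a library and those of 1 class share a cell type, so Pearson's r is a description. Cxcl9 was most like Ly6i (r = 0.848), Batf2 (0.846) and Pgap2 (0.822), and Cxcl10 like Oas1g (0.827), Phf11d (0.826) and Ifi204 (0.822). Cxcl14 was most like Ms4a14 (0.847), Ms4a7 (0.838) and Pf4 (0.809), Cxcl16 like Creb5 (0.929) and Cttnbp2nl (0.909), and Cxcl2 like Sash1 (0.870) and Tgfbi (0.858). Among receptors, Cxcr6 was most like Themis (0.950), Cd3g (0.941) and Cd3e (0.940), and Cxcr3 like Smco4 (0.872) and Cd28 (0.859). Cxcl13 and Cxcr4 had the lowest top values of the 9, 0.648 (Oser1) and 0.666 (H3f3a). Next for Cxcl13 came Eif3j2 (0.616) and Ifi202b (0.613), and for Cxcr4 Id3 (0.663) and St3gal1 (0.647).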
